A study of Mus musculus with 29 samples.

Results

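The genes described here are those whose expression moved the same way in 3 sorted populations of mice that carry the 5A3 deletion, namely CD150hi and CD150lo hematopoietic stem cells (HSC) and CD150neg multipotent progenitors (MPP). Each gene received 1 value per mouse, log2(FPKM + 1) centred on the mean of its population and averaged over the libraries of that mouse, and the values of 5 5A3+/del mice were compared with those of 5 WT mice. FPKM count fragments relative to the exon length of a gene and the size of the library, and a pseudocount of 1 keeps genes near 0 from dominating. Of 30025 genes in the deposited table, 15409 were tested, being those with 4 or more of the 29 libraries at 1 FPKM or above. Among these, 4817 had the same sign of difference in the 3 populations, and 5 of them also passed an adjusted p-value of 0.05 in the pooled comparison.

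All mice were on a C57BL/6J background and between 12.42 and 13.85 weeks old. The 5A3+/del mice, called WT/DEL in the sample labels, are heterozygous in every tissue for a germ line deletion of mouse chromosome band 5A3, the counterpart of human 7q22; WT mice are called WT/WT. The allele was engineered by Cre recombination in cultured embryonic stem cells, with the breakpoints targeted to Fbxl13 and Srpk2. The paper reports that the mutant line was then backcrossed onto this background. Whether other DNA of the stem cells remained beside the deletion was not tested. Bone marrow cells of 10 mice were sorted into these populations, of which CD150neg MPP are also called HSC in the labels, and their RNA was amplified before sequencing. No library was analysed here for CD150neg MPP from 5A3+/del mouse 5, whose value rests on its other two libraries. From the steps in the low FPKM values, 21229490 to 38797569 fragments per library lie behind the table. The labels do not state sex. All 3 libraries of WT mouse 3 had 234 to 319 FPKM of Xist and 0.0222 to 0.124 FPKM summed over 4 Y-linked genes, against at most 0.470 and at least 51.4 FPKM in the other 26 libraries. Of Xist and these genes 4 passed the filter and 0 were called between genotypes. Counts and the values of some genes are therefore also given without this mouse, and the other results include it. Slamf1, which encodes CD150, had mean FPKM of 14.4, 1.62 and 0.146 in WT CD150hi, CD150lo and CD150neg cells, and 16.1, 0.957 and 0.0698 in 5A3+/del cells.

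A heterozygous deletion leaves 1 copy of each gene in the interval, and for most genes without feedback the amount of transcript follows the number of copies. The interval holds genes for DNA replication, chromatin, protein folding and degradation, mitochondrial protein import and lipid signalling. Loss of the matching human segment is a recurrent lesion of myelodysplastic syndrome and acute myeloid leukaemia.

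Several genes of the interval lie head to head, transcribed away from each other from a shared stretch of DNA. The stretches are shown because genes that start at them are deleted or, in the case of Fbxl13, were targeted for a breakpoint. Evc and Evc2, a head-to-head pair outside the interval, are shown too. Of the chromosome 5 genes outside the interval that were named by p-value, they had the largest positive differences. The sequences are those of mm9, plus strand, with CG dinucleotides in capitals, and reach from the base after the left gene to the base before the right gene, or cover the last 300 bases of a longer gap.
Fbxl13 and Armc10, chr5:21151424-21151630: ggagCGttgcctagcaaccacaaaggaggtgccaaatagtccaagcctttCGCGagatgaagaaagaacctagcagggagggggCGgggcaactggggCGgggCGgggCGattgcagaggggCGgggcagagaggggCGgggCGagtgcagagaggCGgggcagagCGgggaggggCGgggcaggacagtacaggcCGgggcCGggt
Dnajc2 and Psmc2, chr5:21291070-21291100: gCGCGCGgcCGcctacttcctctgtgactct
5031425E22Rik and Mll5, chr5:22939959-22940258: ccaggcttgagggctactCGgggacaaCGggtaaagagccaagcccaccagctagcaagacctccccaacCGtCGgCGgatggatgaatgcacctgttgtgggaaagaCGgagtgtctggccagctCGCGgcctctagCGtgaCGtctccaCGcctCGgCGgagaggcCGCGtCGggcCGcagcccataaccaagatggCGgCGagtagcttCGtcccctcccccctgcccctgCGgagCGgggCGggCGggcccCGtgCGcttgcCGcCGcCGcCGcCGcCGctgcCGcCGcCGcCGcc
Evc and Evc2, chr5:37729417-37729716: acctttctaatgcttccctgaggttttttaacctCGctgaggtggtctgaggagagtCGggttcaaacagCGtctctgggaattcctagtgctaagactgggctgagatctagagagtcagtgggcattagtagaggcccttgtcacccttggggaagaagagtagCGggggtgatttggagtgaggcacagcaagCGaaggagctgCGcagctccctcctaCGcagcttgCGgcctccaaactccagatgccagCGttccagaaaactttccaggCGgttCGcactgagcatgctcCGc
The gap between Fbxl13 and Armc10 is 207 bp, that between Dnajc2 and Psmc2 31 bp, that between 5031425E22Rik and Mll5 521 bp and that between Evc and Evc2 1583 bp. The stretch before Mll5 holds 36 CG dinucleotides, or 12.0 per 100 bases, and the one before Evc2 12, or 4.00. Between Fbxl13 and Armc10 there are 15, or 7.25 per 100 bases. Over the 32851 RefSeq promoters of GRCm38.p6 the median is 2.33 per 100 bases, and 6.23%, 39.6% and 23.1% of promoters were at or above the densities before Mll5, before Evc2 and between Fbxl13 and Armc10. These shares compare stretches of unlike length and describe the letters only.

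In the pooled comparison 5 of 15409 tested genes were called lower (0.0324%) and 0 called higher (0%), with limma and Benjamini-Hochberg adjustment over all tested genes. Between the end of Fbxl13 and the start of Srpk2 the interval measures 1857750 bp of mm9 chromosome 5, the build of all gene positions given here. All 5, Dnajc2, Mll5, Pmpcb, Armc10 and Orc5, lie inside the deleted interval, and their pooled differences ran from -1.01 to -0.82 on the log2 scale. At an unadjusted p under 0.05 there were 1436 genes (9.32%), 590 higher and 846 lower, of which 1055 had the same sign in the 3 populations. Of all tested genes, 2428 (15.8%) were higher and 2389 (15.5%) lower in the 3 populations by sign alone. In 4 genes the mutant and WT libraries were fully apart, with the mutant ones lower, in each of the 3 populations (0.026%), namely Mll5, Dnajc2, Pmpcb and Orc5. No gene lay above in the same way (0%). On the pooled value, the 5 mice of 1 genotype did not overlap with the 5 of the other in 409 genes (2.65%). The median pooled difference of all tested genes was 0.00072. With the mouse as a random effect in a fit of all 29 libraries, 21 genes were called, the 8 tested interval genes and 13 others, and 5 of the 21 were higher. That fit used a shared correlation of 0.064 between libraries of a mouse, so it treated the libraries as nearly independent although genotype varies only between the 10 mice. With a pseudocount of 0.1, 2 genes were called higher, Evc2 and Etl4, and quantile normalization called 1 higher, Evc2. Without WT mouse 3 the count was 4, since Orc5 was no longer called.

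Within single populations, the genes called by limma numbered 22 for CD150hi (0.143%), 5 for CD150lo (0.0324%) and 6 for CD150neg cells (0.0389%). Mll5, Dnajc2, Pmpcb and Orc5 were called in each of the 3 populations. The test of a difference between populations called 0 genes, with 1010 at an unadjusted p under 0.05. A p-value above the threshold there does not show that the populations responded alike. Bulk libraries such as these cannot tell fewer cells of a type from less RNA per cell.

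Mll5 (chr5:22940259-23010053, plus strand) encodes a SET and PHD domain protein of the trithorax family that is required for normal function of HSC. Its values were 42.8, 37.9, 48.5, 45.3 and 43.3 FPKM in WT CD150hi HSC and 20.7, 25.2, 28.8, 19.9 and 23.2 FPKM in 5A3+/del CD150hi HSC. In the second population they were 40.0, 42.1, 37.3, 47.0 and 48.9 in WT and 21.9, 21.9, 28.4, 29.1 and 28.8 in 5A3+/del CD150lo HSC. The third gave 58.1, 57.1, 46.2, 47.8 and 53.5 in WT and 32.4, 24.2, 26.7 and 23.5 in 5A3+/del CD150neg MPP. No 5A3+/del library reached the lowest WT library of its population. The mutant means were 54.1%, 60.4% and 50.8% of the WT means in CD150hi, CD150lo and CD150neg cells. On the pooled scale the values were 0.42, 0.37, 0.33, 0.43 and 0.48 in WT mice 1 to 5 and -0.48, -0.52, -0.30, -0.51 and -0.32 in 5A3+/del mice 1 to 5. The 2 groups of mice were separated by a gap, and the difference was -0.83 ± 0.08 (SE, limma, adjusted p = 0.00281). It remained called when any single mouse was left out.

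Orc5 (chr5:21992303-22056247, minus strand) encodes a subunit of the origin recognition complex, which marks the sites where DNA replication begins. It had 13.6, 10.0, 8.32, 10.5 and 6.90 FPKM in WT CD150hi HSC and 3.92, 3.73, 5.02, 3.69 and 6.08 FPKM in 5A3+/del CD150hi HSC. It had 10.0, 8.60, 10.5, 12.3 and 11.4 in WT and 3.29, 4.19, 4.48, 3.05 and 6.28 in 5A3+/del CD150lo HSC. In the third population it had 11.8, 9.48, 8.59, 9.94 and 10.9 in WT and 4.36, 4.52, 4.83 and 4.60 in 5A3+/del CD150neg MPP. Again each mutant library was below each WT library of its population, with the narrowest gap in CD150hi HSC, where WT mouse 5 and 5A3+/del mouse 5 were neighbours. The pooled values were 0.70, 0.41, 0.37, 0.60 and 0.43 in WT mice 1 to 5 and -0.69, -0.60, -0.44, -0.72 and -0.09 in 5A3+/del mice 1 to 5. The difference was -1.01 ± 0.13 (SE, limma, adjusted p = 0.0198), and the mutant means were 45.4%, 40.4% and 45.2% of WT. 5A3+/del mouse 5 had the smallest reduction. The call depended on the full set of mice, being kept in 1 of 10 fits that left out a mouse, and without WT mouse 3 the adjusted p was 0.0597.

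Dnajc2 (chr5:21263085-21291069, minus strand) encodes a J protein that works at the ribosome with its partner Hspa14 on newly made proteins. The libraries had 13.7, 17.9, 18.0, 14.9 and 14.3 FPKM in WT CD150hi HSC and 9.19, 6.04, 7.67, 7.83 and 9.66 FPKM in 5A3+/del CD150hi HSC. They had 16.3, 13.7, 13.4, 17.7 and 18.4 in WT and 6.79, 11.2, 8.64, 8.49 and 9.20 in 5A3+/del CD150lo HSC. The last population had 16.9, 18.7, 17.3, 16.2 and 18.2 in WT and 5.60, 8.12, 7.00 and 9.62 in 5A3+/del CD150neg MPP. Genotypes did not overlap in any population. Pooled values were 0.39, 0.47, 0.43, 0.44 and 0.49 in WT mice 1 to 5 and -0.65, -0.46, -0.54, -0.40 and -0.26 in 5A3+/del mice 1 to 5, and the WT mice lay close together. The difference was -0.91 ± 0.09 (SE, limma, adjusted p = 0.00281), with mutant means at 51.2%, 55.8% and 43.5% of WT.

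Psmc2 (chr5:21291101-21309605, plus strand), which starts 31 bp away from Dnajc2 on the other strand, encodes an ATPase of the base of the 26S proteasome. It had 6.08, 10.8, 7.32, 7.49 and 7.43 FPKM in WT CD150hi HSC and 2.79, 1.84, 4.53, 3.79 and 5.12 FPKM in 5A3+/del CD150hi HSC. It had 8.71, 5.87, 6.08, 8.48 and 7.16 in WT and 2.92, 3.74, 2.89, 4.55 and 4.14 in 5A3+/del CD150lo HSC. The values were 9.08, 6.87, 5.17, 6.67 and 8.46 in WT and 5.20, 3.42, 5.48 and 4.22 in 5A3+/del CD150neg MPP. The genotypes were apart in both HSC populations and overlapped in CD150neg MPP, where mutant mice 1 and 3 had slightly more than WT mouse 3. The pooled difference was -0.77 ± 0.12 (SE, limma, adjusted p = 0.0626) and did not pass. The differences in the 3 populations were -0.97 ± 0.19, -0.83 ± 0.19 and -0.56 ± 0.20. Quantile normalization brought the adjusted p to 0.0334. Over 26 alternatives the adjusted p from limma ran from 0.00110 to 0.612, and Psmc2 was called in 7 of them. Of the 10 fits that left out a mouse, 1 called it.

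Pmpcb (chr5:21242959-21262970, plus strand) encodes the beta subunit of the mitochondrial processing peptidase, which cuts the import signal from proteins that enter mitochondria. It had 7.78, 7.87, 8.47, 8.57 and 7.46 FPKM in WT CD150hi HSC and 2.99, 3.61, 5.67, 5.35 and 3.90 FPKM in 5A3+/del CD150hi HSC. It had 6.83, 8.87, 9.40, 9.83 and 10.0 in WT and 5.15, 4.31, 5.09, 4.29 and 5.44 in 5A3+/del CD150lo HSC. The third set was 9.06, 8.65, 8.54, 9.28 and 10.7 in WT and 4.58, 3.92, 4.97 and 4.00 in 5A3+/del CD150neg MPP. The genotypes did not overlap in any population, and the mutant libraries spread most in CD150hi HSC. The difference was -0.82 ± 0.09 (SE, limma, adjusted p = 0.00635), and mutant means were 53.6%, 54.0% and 47.2% of WT.

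Armc10 (chr5:21151631-21168512, plus strand) encodes an armadillo repeat protein of the mitochondrial surface, and it begins 207 bp from Fbxl13. The libraries had 20.3, 28.7, 16.6, 24.5 and 23.8 FPKM in WT CD150hi HSC and 27.9, 7.44, 10.7, 11.8 and 12.4 FPKM in 5A3+/del CD150hi HSC. They had 21.9, 18.5, 20.1, 26.8 and 23.2 in WT and 8.56, 13.2, 11.4, 12.5 and 12.1 in 5A3+/del CD150lo HSC. Last, there were 19.6, 26.9, 24.9, 26.1 and 24.3 in WT and 11.0, 12.6, 11.2 and 10.1 in 5A3+/del CD150neg MPP. In CD150hi HSC the library of 5A3+/del mouse 1 stood with the WT libraries, while its CD150lo and CD150neg libraries were low. The pooled values were 0.29, 0.52, 0.27, 0.60 and 0.49 in WT mice 1 to 5 and -0.24, -0.59, -0.55, -0.51 and -0.40 in 5A3+/del mice 1 to 5, and the difference was -0.89 ± 0.10 (SE, limma, adjusted p = 0.00731). The call was lost without the CD150lo libraries (adjusted p = 0.240) or without the CD150neg libraries (adjusted p = 0.0818). It was kept in all 10 fits that left out a mouse.

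Napepld (chr5:21168719-21207214, minus strand) encodes the phospholipase D that releases N-acylethanolamines such as anandamide from membrane lipids. It had the lowest FPKM of the tested interval genes, with 0.871, 2.02, 3.15, 1.82 and 1.24 FPKM in WT CD150hi HSC and 0, 1.57, 1.34, 0.989 and 1.08 FPKM in 5A3+/del CD150hi HSC. It had 3.75, 2.29, 1.94, 1.39 and 2.26 in WT and 0.0926, 0.758, 0.692, 0.707 and 1.70 in 5A3+/del CD150lo HSC. In CD150neg MPP, where the genotypes did not overlap, there were 2.37, 2.35, 2.89, 1.56 and 1.80 in WT and 0.113, 0.176, 0.506 and 0.458 in 5A3+/del CD150neg MPP. WT MPP libraries thus held 183 to 379 fragments of the gene and mutant ones 11 to 57. Mutant means were 54.8%, 33.9% and 14.3% of WT. The pooled difference was -0.85 ± 0.18 (SE, limma, adjusted p = 0.310) and did not pass, with mouse values from -1.08 to 0.03 among the mutants, of which mouse 1 was lowest.

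5031425E22Rik (chr5:22937628-22939737, minus strand), whose start lies beside that of Mll5, had differences of unlike size in the 3 populations. It had 8.05, 4.19, 5.99, 7.76 and 5.74 FPKM in WT CD150hi HSC and 11.0, 5.05, 3.88, 5.63 and 5.54 FPKM in 5A3+/del CD150hi HSC. The CD150lo values were 8.77, 7.29, 7.78, 7.35 and 8.08 in WT and 4.98, 6.30, 3.65, 4.01 and 3.46 in 5A3+/del CD150lo HSC. The CD150neg values were 8.10, 10.1, 8.05, 7.28 and 8.34 in WT and 2.91, 1.63, 2.17 and 5.31 in 5A3+/del CD150neg MPP. The genotypes overlapped in CD150hi HSC, with 5A3+/del mouse 1 highest of all 10 libraries, and did not overlap in the other populations. The differences were -0.07 ± 0.21, -0.71 ± 0.21 and -1.30 ± 0.23 in that order, and the test of a difference between populations gave an adjusted p of 0.406 with limma. The pooled difference was -0.67 ± 0.12 (SE, limma, adjusted p = 0.177) and did not pass.

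**Figure D1:**
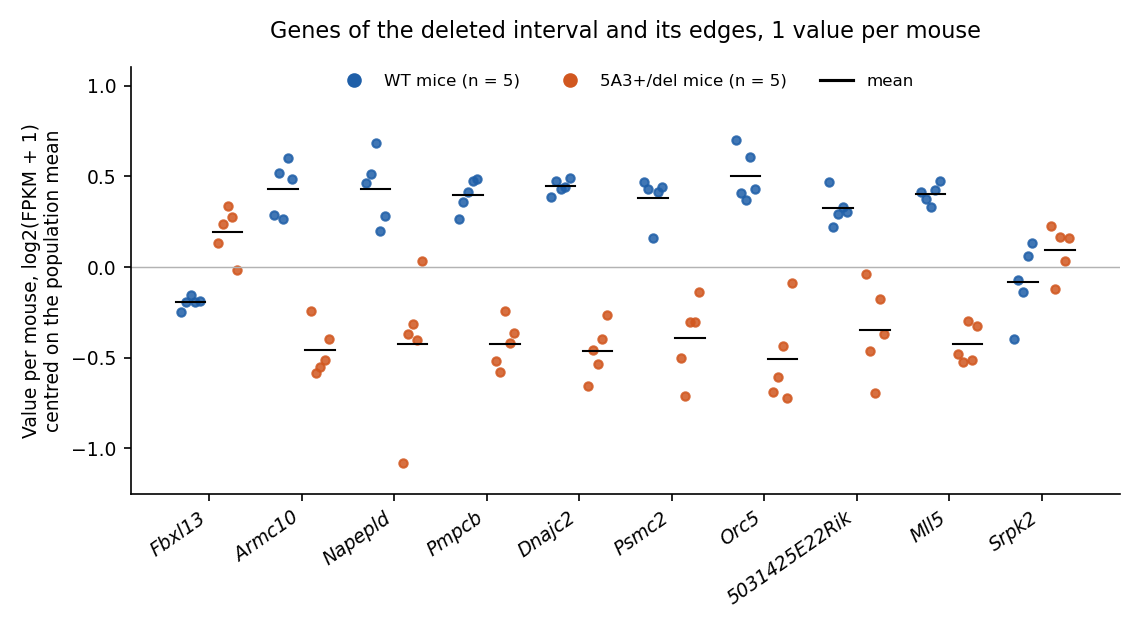
Value per mouse, log2(FPKM + 1) centred on the mean of each population and averaged over the libraries of the mouse, for the 8 tested interval genes and the edge genes Fbxl13 and Srpk2, with 5 WT and 5 5A3+/del mice per gene and a line at each mean. In the 8 interval genes each mutant mouse lies below each WT mouse, and in Fbxl13 each lies above.

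**Figure D2:**
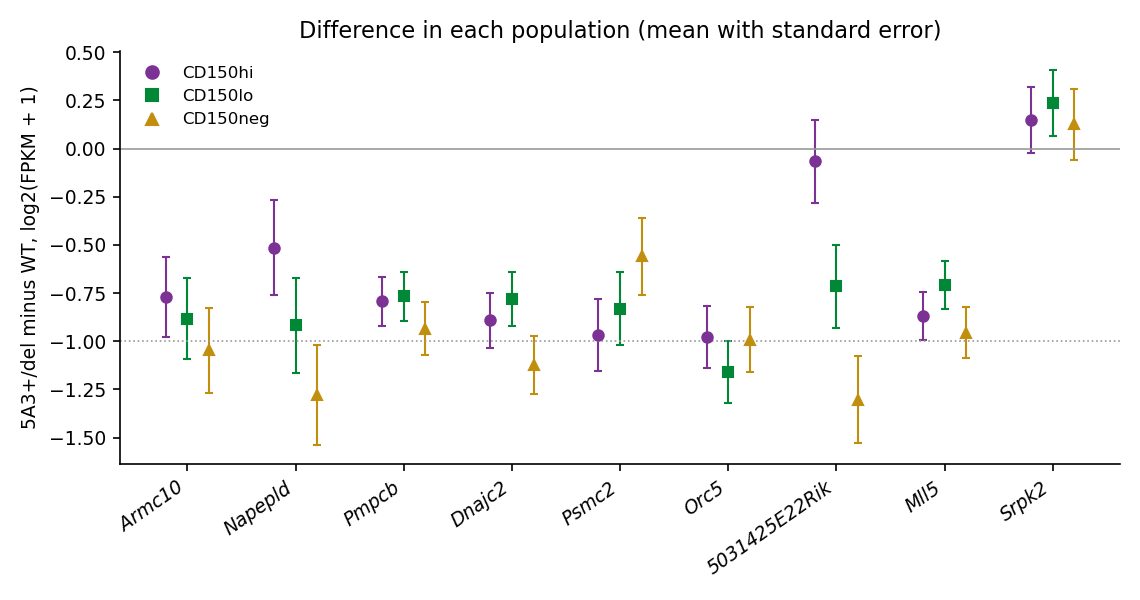
Difference of 5A3+/del minus WT in log2(FPKM + 1) with its standard error from limma, by population, for the 8 tested interval genes and Srpk2, with a dotted line at -1. Values of the interval genes run from -1.30 to -0.07, both for 5031425E22Rik, and Srpk2 is above 0 in the 3 populations.

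Of the 14 genes listed for the interval, 8 were tested and 6 were under the filter. The list includes Lrrc17, which lies within Fbxl13 at the proximal edge. Lrrc17, Slc26a5 and Reln never exceeded 30, 34 and 19 fragments in a library. 6030443J06Rik reached 0.826 FPKM, AC112688.1, an snRNA, reached 37 fragments and Lhfpl3 reached 58. Slc26a5, Reln, 6030443J06Rik, AC112688.1 and Lhfpl3 had exact two-sided permutation p-values from 0.246 to 0.960 over the 10 mice. Another 3 tested genes lie in the interval by position and were added after their values were seen. They are the pseudogenes Gm15715, inside Pmpcb on the other strand, Gm15421, inside Orc5, and Rpl17-ps5. Their pooled differences were -1.09 ± 0.29, -0.32 ± 0.11 and -0.27 ± 0.08 (SE), with limma adjusted p-values of 0.324, 0.404 and 0.371. Gm15715 had 0 to 106 fragments per library. The sources used here do not say whether strand was counted. If it was not, fragments of Gm15715 cannot be told apart from those of Pmpcb. In addition, Rpl17-ps5 can share reads with Rpl17.

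At both edges of the interval the differences were positive. The paper reports a modest rise of both edge genes, Fbxl13 and Srpk2, in mutant HSC and relates it to its targeting strategy. The breakpoints were targeted to these genes, and FPKM per gene cannot tell whole transcripts from partial or joined ones. Fbxl13 (chr5:20989665-21151423, minus strand) encodes an F-box protein of the kind that selects targets for ubiquitin ligases, and it was nearly silent in WT cells. It had 0.0340, 0, 0.0105, 0.0522 and 0 FPKM in WT CD150hi HSC and 0.0323, 0.603, 0.259, 0.0555 and 0.118 FPKM in 5A3+/del CD150hi HSC. It had 0.00738, 0.0603, 0.0912, 0.0218 and 0.138 in WT and 0.932, 0.358, 0.945, 1.26 and 0.309 in 5A3+/del CD150lo HSC. In the third population it had 0, 0.102, 0.138, 0.0867 and 0.0372 in WT and 0.151, 0.310, 0.432 and 0.291 in 5A3+/del CD150neg MPP. Mutant libraries were above all WT libraries in CD150lo HSC and CD150neg MPP, and overlapped with them in CD150hi HSC. In fragments, WT libraries had 0 to 5, 1 to 13 and 0 to 16 in CD150hi, CD150lo and CD150neg cells, and mutant libraries had 3 to 54, 31 to 110 and 13 to 40. The pooled values were -0.25, -0.19, -0.16, -0.19 and -0.19 in WT mice 1 to 5 and 0.13, 0.24, 0.34, 0.27 and -0.01 in 5A3+/del mice 1 to 5, with no overlap between mice. The difference of 0.39 gave an exact two-sided permutation p of 0.00794, the smallest that 5 against 5 mice allow, and 7 genes under the filter were tested in this way. Without WT mouse 3 the difference was 0.40 (exact permutation p = 0.0159). When all 30025 genes were tested without a filter, limma gave an adjusted p of 0.130 for Fbxl13, which did not pass.

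Lrrc17, which is nested within Fbxl13 on the other strand, had 0 to 3 fragments in WT and 0 to 30 in mutant libraries. Its pooled difference was 0.11 (exact two-sided permutation p = 0.0476). If strand was not counted, which the sources used here do not state, fragments of Lrrc17 and Fbxl13 cannot be told apart there. Srpk2 (chr5:23009174-23182266, minus strand), a kinase of splicing factors at the distal edge, had 7.13, 7.49, 10.2, 10.9 and 11.1 FPKM in WT CD150hi HSC and 11.0, 10.8, 10.3, 8.26 and 11.5 FPKM in 5A3+/del CD150hi HSC. It had 5.57, 10.2, 6.39, 11.1 and 10.4 in WT and 11.4, 7.13, 10.0, 13.0 and 9.94 in 5A3+/del CD150lo HSC. It had 8.86, 9.99, 9.92, 8.52 and 10.6 in WT and 12.0, 8.83, 12.7 and 8.96 in 5A3+/del CD150neg MPP. The genotypes overlapped in each population, and the pooled difference was 0.18 ± 0.11 (SE, limma, adjusted p = 0.690). The 3′ ends of Srpk2 and Mll5 overlap on opposite strands, and the same limit holds there.

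Around the interval, 56 tested genes within 20 Mb on the proximal side had a median difference of 0.04 and 162 on the distal side had -0.01, beside 0.00072 over all genes. None of these was called. At an unadjusted p under 0.05 in limma 7 proximal genes were higher and 3 lower (17.9%), and 7 distal genes were higher and 10 lower (10.5%), against 9.32% of all tested genes. By sign, 12 proximal genes were higher and 8 lower in the 3 populations, as were 22 and 35 distal genes. Of the 720 tested genes farther away on chromosome 5, none was called either, and 9.17% had an unadjusted p under 0.05. Fam185a, the next tested gene proximal to the interval at 0.163 Mb from it, had a difference of 0.20 ± 0.12 (SE, limma, adjusted p = 0.659). Pus7, the next one distal to Srpk2 at 0.237 Mb, had -0.12 ± 0.09 (adjusted p = 0.748). The largest positive difference on the distal side was that of Gm17448 at 7.38 Mb, 1.09 ± 0.44 (SE, limma, adjusted p = 0.475). Gm9903 at 11.0 Mb had 0.63 ± 0.27 (SE, limma, adjusted p = 0.503). Both were higher in the 3 populations. Whether DNA of the embryonic stem cells remained around the deletion after backcrossing was not tested. This limit also holds for Tyms, Evc and Evc2, which lie on the distal side.

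**Figure D3:**
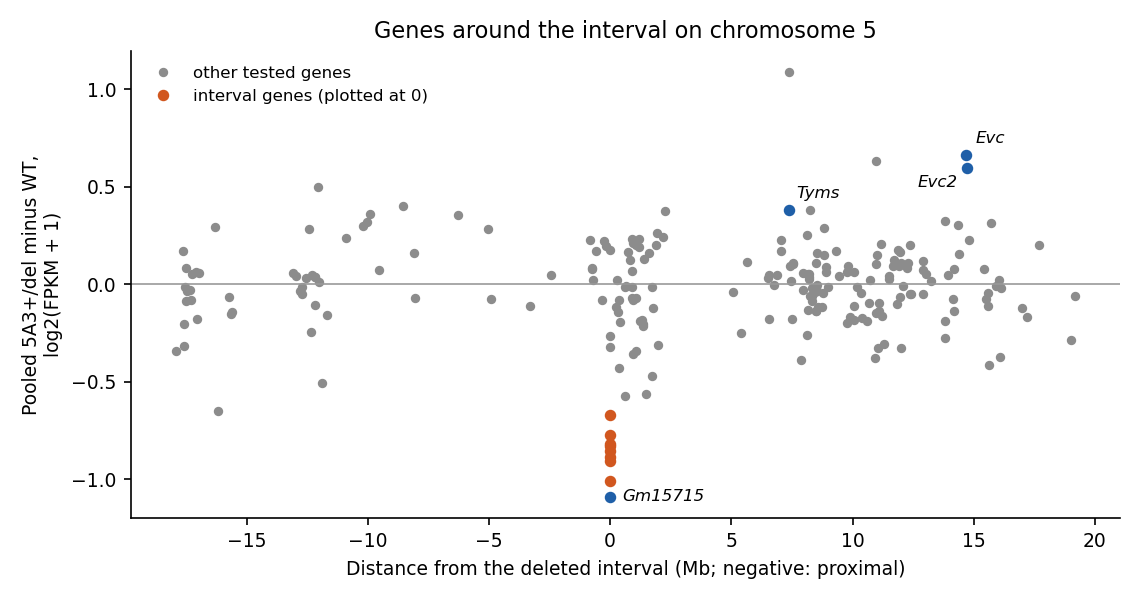
Pooled difference of 5A3+/del minus WT in log2(FPKM + 1) for each tested gene within 20 Mb of the deleted interval, against its distance from the interval in Mb, with interval genes at 0. The 8 interval genes lie between -1.01 and -0.67, and Evc and Evc2 stand at 14.7 Mb above most of their neighbours.

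Outside the interval no gene passed in the pooled comparison. The 10 genes with the smallest p-values among those higher in the 3 populations, and the 10 among those lower, were taken as the next genes and did not pass. The smallest adjusted p was that of Evc2. Evc2 and Evc encode partner proteins at the base of the primary cilium that transmit hedgehog signals, and loss of either causes Ellis-van Creveld syndrome. Evc2 spans chr5:37729717-37816294 and Evc chr5:37680337-37728133 in mm9.

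Evc2 had 2.36, 1.67, 2.79, 2.75 and 1.97 FPKM in WT CD150hi HSC and 2.44, 2.42, 3.93, 3.27 and 3.04 FPKM in 5A3+/del CD150hi HSC. It had 0.0484, 0.0840, 0.306, 0.616 and 0.171 in WT and 1.91, 0.881, 1.14, 1.47 and 1.34 in 5A3+/del CD150lo HSC. In CD150neg MPP it had 0.0322, 0, 0, 0.0115 and 0.0388 in WT and 0.160, 0.720, 0.954 and 0.413 in 5A3+/del CD150neg MPP. Genotypes overlapped in CD150hi HSC and did not overlap in the other populations, where WT levels were near 0. WT MPP libraries had 0 to 7 fragments of Evc2 and mutant ones 23 to 148. The pooled values were -0.34, -0.45, -0.20, -0.09 and -0.35 in WT mice 1 to 5 and 0.21, 0.19, 0.49, 0.33 and 0.31 in 5A3+/del mice 1 to 5, and the difference was 0.60 ± 0.10 (SE, limma, adjusted p = 0.106). It passed with a pseudocount of 0.1 (difference 1.62, adjusted p = 0.0181), with the mouse as a random effect (adjusted p = 0.00226) and with quantile normalization (adjusted p = 0.0334), and over 25 alternatives the adjusted p ran from 0.00226 to 0.662.

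Evc had 1.31, 0.307, 1.24, 0.573 and 1.05 FPKM in WT CD150hi HSC and 2.92, 2.12, 1.81, 1.90 and 1.72 FPKM in 5A3+/del CD150hi HSC. It had 1.43, 0.0639, 0.181, 0.192 and 0.0530 in WT and 1.05, 0.394, 1.07, 0.555 and 0.533 in 5A3+/del CD150lo HSC. It had 0.300, 0, 0, 0.0437 and 0.0295 in WT and 1.00, 1.60, 1.14 and 0.706 in 5A3+/del CD150neg MPP. WT mouse 1 was high in both CD150lo and CD150neg cells, and its CD150lo library made the genotypes overlap there. The pooled difference was 0.66 ± 0.15 (SE, limma, adjusted p = 0.310). Evc2 and Evc lie side by side and were measured in the same libraries. Etl4, a large gene on chromosome 2 that is known from embryonic development of the axial skeleton, had 0.579, 0.335, 0.553, 0.293 and 0.296 FPKM in WT CD150hi HSC and 1.03, 0.843, 1.19, 1.18 and 1.11 FPKM in 5A3+/del CD150hi HSC. It had 0.226, 0.448, 0.307, 0.499 and 0.743 in WT and 0.988, 1.38, 1.40, 0.962 and 0.977 in 5A3+/del CD150lo HSC. It had 0.847, 0.962, 0.392, 0.612 and 0.515 in WT and 0.752, 1.37, 1.16 and 0.663 in 5A3+/del CD150neg MPP. The genotypes did not overlap in the HSC populations and overlapped in MPP, and the pooled difference was 0.47 ± 0.08 (SE, limma, adjusted p = 0.138). Etl4 passed with a pseudocount of 0.1 (difference 1.01, adjusted p = 0.0126), without a filter (adjusted p = 0.0492) and with the mouse as a random effect (adjusted p = 0.00582), and with quantile normalization its adjusted p was 0.287.

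**Figure D4:**
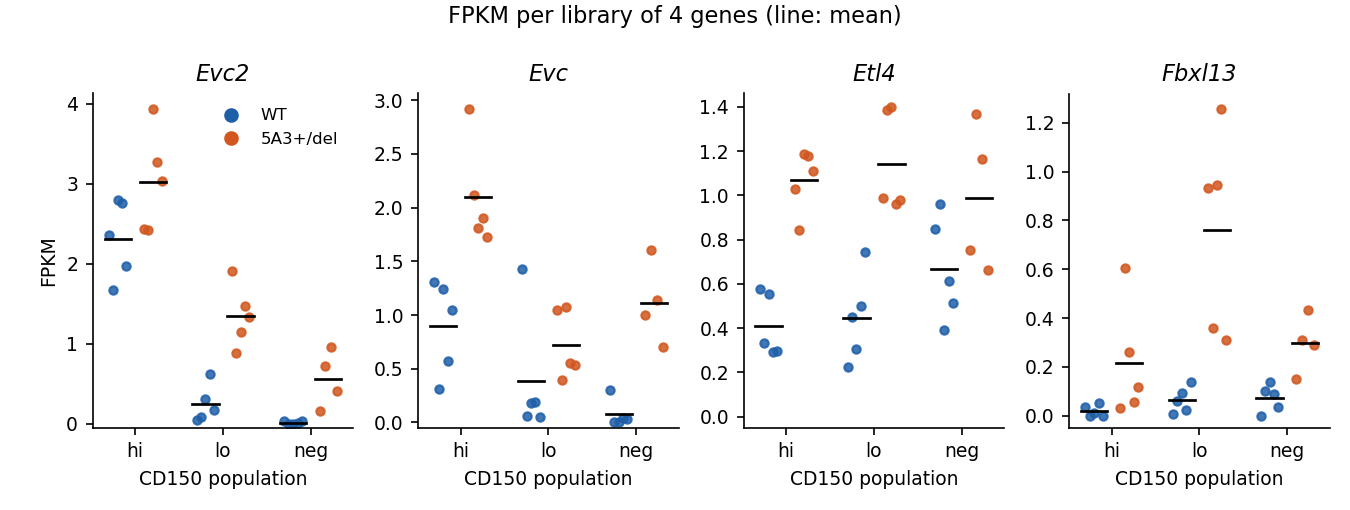
FPKM of Evc2, Evc, Etl4 and Fbxl13 in each library by CD150 population and genotype, with a line at each mean. Mutant libraries of Evc2 and Fbxl13 are above all WT libraries in CD150lo and CD150neg cells, whereas Etl4 is apart in CD150hi and CD150lo cells.

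The other higher genes were of several kinds, and each had an adjusted p of 0.267 or above. Tyms, the thymidylate synthase that supplies dTMP for DNA replication, lies 7.38 Mb distal to the interval and had pooled values of -0.31, -0.26, -0.08, -0.16 and -0.12 in WT mice 1 to 5 and 0.37, 0.20, 0.11, 0.18 and 0.12 in 5A3+/del mice 1 to 5. Mice of the 2 genotypes did not overlap, and the difference was 0.38 ± 0.08 (SE, limma, adjusted p = 0.310), with 0.40 ± 0.14, 0.40 ± 0.14 and 0.35 ± 0.15 in the 3 populations. Itgb2, the beta chain of leukocyte integrins, had a difference of 0.53 ± 0.12 (SE, limma, adjusted p = 0.310), and Isg20, an interferon-induced exonuclease, one of 0.51 ± 0.11 (SE, limma, adjusted p = 0.310). P2ry2, a receptor for extracellular nucleotides, had 0.46 ± 0.10 (SE, limma, adjusted p = 0.310). The homeobox gene Hoxb6 had 0.62 ± 0.14 (SE, limma, adjusted p = 0.310). Apol7e of the apolipoprotein L family had 0.44 ± 0.10 (SE, limma, adjusted p = 0.310). Mir99a, a microRNA precursor with 2 to 178 fragments per library, had 1.07 ± 0.21 (SE, limma, adjusted p = 0.267), and its difference was 2.07 in CD150hi HSC but 0.23 in CD150lo HSC. These libraries do not measure mature microRNA.

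Among the lower genes, Fcer1g encodes the signalling chain shared by Fc receptors. It had 46.1, 30.8, 25.1, 42.1 and 30.1 FPKM in WT CD150hi HSC and 24.0, 22.3, 22.03, 22.8 and 16.7 FPKM in 5A3+/del CD150hi HSC. It had 43.2, 29.9, 28.5, 29.4 and 32.6 in WT and 23.1, 18.6, 32.3, 27.0 and 21.2 in 5A3+/del CD150lo HSC. It had 42.9, 41.9, 40.6, 33.0 and 31.3 in WT and 26.3, 21.8, 22.8 and 16.6 in 5A3+/del CD150neg MPP. The genotypes were apart in CD150hi HSC and CD150neg MPP, and in CD150lo HSC 5A3+/del mouse 3 was within the WT range. The difference was -0.62 ± 0.12 (SE, limma, adjusted p = 0.231). Of 12 granulocyte and monocyte markers 10 were tested and 0 passed, and their summed FPKM overlapped between genotypes in each population. The sum was 289.7 to 1132 in WT and 230 to 342 in mutant CD150hi HSC, 212 to 1680 and 239 to 623 in CD150lo HSC, and 249 to 304 and 213 to 537 in CD150neg MPP. Lyz2 alone had group means of 172 to 216 FPKM, so the sum can hide gaps in other markers. In CD150hi HSC, WT and mutant means were 169 and 17.8 FPKM for S100a8 and 33.3 and 1.38 for Ngp. In that population only Prtn3, Lyz2 and Csf1r had higher mutant means. S100a9 had 124 and 17.4 in CD150hi HSC, 145 and 60.9 in CD150lo HSC, and 14.8 and 43.3 in CD150neg MPP. Over all 29 libraries the highest values were 737 FPKM for S100a8, 469 for S100a9 and 110 for Ngp. Single libraries can therefore carry much of a group mean. The part of these markers in the values of Fcer1g and Itgb2 was not tested. The differences of Fcer1g were -0.64, -0.41 and -0.77 in CD150hi, CD150lo and CD150neg cells.

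Hdac9, a histone deacetylase, had 4.77, 4.56, 4.36, 3.67 and 4.79 FPKM in WT CD150hi HSC and 3.12, 3.27, 2.86, 2.43 and 3.64 FPKM in 5A3+/del CD150hi HSC. It had 2.11, 1.80, 2.43, 2.03 and 2.33 in WT and 1.17, 0.675, 2.50, 0.993 and 1.22 in 5A3+/del CD150lo HSC. It had 2.09, 4.60, 1.72, 1.50 and 2.13 in WT and 1.40, 0.258, 0.880 and 0.735 in 5A3+/del CD150neg MPP. The genotypes did not overlap in CD150hi HSC and CD150neg MPP, and 5A3+/del mouse 3 was the highest of the CD150lo libraries. The difference was -0.57 ± 0.12 (SE, limma, adjusted p = 0.310). Uqcrq, a subunit of respiratory complex III, had -0.46 ± 0.08 (SE, limma, adjusted p = 0.162), and Arpc3, of the Arp2/3 complex that branches actin filaments, had -0.49 ± 0.10 (SE, limma, adjusted p = 0.277). Ufc1, the enzyme that passes UFM1 to its targets, had -0.50 ± 0.11 (SE, limma, adjusted p = 0.310). Bmyc, a relative of Myc, and D8Ertd738e had -0.45 and -0.57. The pseudogenes Gm13991 and Gm14217, which can share reads with copies elsewhere, had -0.84 and -0.42. For Arpc3, Ufc1, Bmyc and Gm14217 the differences in CD150neg MPP were -0.08, -0.06, -0.10 and -0.06, beside -0.78, -0.79, -0.57 and -0.42 in CD150hi HSC. The sign these 4 share in the 3 populations thus rests on small values in MPP.

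Genes whose products work with those of the interval were followed as a list of 20, all tested, and 0 passed in either direction. Their median pooled difference was -0.03, against 0.00072 over all genes. In the 3 populations 2 were higher and 7 lower, beside 15.8% higher and 15.5% lower over all tested genes. Pmpca, the other subunit of the processing peptidase, had -0.10. Hspa14, the partner of Dnajc2, had -0.20. The remaining origin recognition genes Orc1, Orc2, Orc3, Orc4 and Orc6 had 0.15, -0.01, 0.10, 0.08 and -0.24. Faah, which breaks down the lipids that Napepld makes, had -0.29 ± 0.11 (SE, limma, adjusted p = 0.415). The other proteasome subunits, 33 genes without Psmc2, had a median of -0.05 and 0 passed. In the 3 populations 1 was higher and 13 lower, beside 15.8% and 15.5% over all tested genes. The 5 ATPases that form a ring with Psmc2 had -0.04 for Psmc1, -0.17 for Psmc3, -0.11 for Psmc4, -0.02 for Psmc5 and -0.03 for Psmc6. Each of these was closer to 0 than Psmc2 itself.

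Of 77 nuclear genes for subunits of the respiratory chain and ATP synthase, 0 passed, 3 were higher and 32 lower in the 3 populations, and 1 was higher and 21 lower at an unadjusted p under 0.05. Over all tested genes, 15.8% were higher and 15.5% lower in the 3 populations, 9.32% had an unadjusted p under 0.05, and the median was 0.00072. The median of the list was -0.15, made up of -0.19 for CD150hi, -0.23 for CD150lo and -0.02 for CD150neg cells. Means over the list per mouse ranged from 0.02 to 0.15 among WT mice and -0.18 to -0.04 among mutant mice. Ndufb10, of complex I, had -0.59 ± 0.14 (SE, limma, adjusted p = 0.323), with -0.67, -0.57 and -0.53 in the 3 populations. Ndufa6, of the same complex, had -0.98, -0.56 and 0.08. The 13 subunits encoded by mitochondrial DNA had a median of 0.03 with 0 passing, 4 higher and 0 lower in the 3 populations. At an unadjusted p under 0.05, 3 were higher and 2 lower. The former were mt-Nd1 with 0.36, mt-Nd5 with 0.41 and mt-Co1 with 0.25, and the latter mt-Nd3 with -0.35 and mt-Atp6 with -0.23.

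Of the 79 cytosolic ribosomal protein genes none passed, 0 were higher and 37 lower in the 3 populations, and 45 were lower at an unadjusted p under 0.05, beside 15.5% lower by sign and 9.32% at an unadjusted p under 0.05 in either direction over all tested genes. The median was -0.19, with -0.29 for CD150hi, -0.28 for CD150lo and 0.01 for CD150neg cells. Means over the list per mouse ranged from -0.01 to 0.16 among WT mice and -0.15 to -0.03 among mutant mice. Rps14, of the small subunit, had -0.58, -0.44 and -0.08. Ribosomal and OXPHOS mRNAs are known to be short. Tested genes with the shortest exon length, 28 to 1338 bp, had median differences of -0.09, -0.07 and 0.0047 in CD150hi, CD150lo and CD150neg cells, and those of 4863 to 31152 bp had 0.03, 0.04 and -0.03. The part of gene length in the list values was not tested. The difference between populations was not tested for a list.

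**Figure D5:**
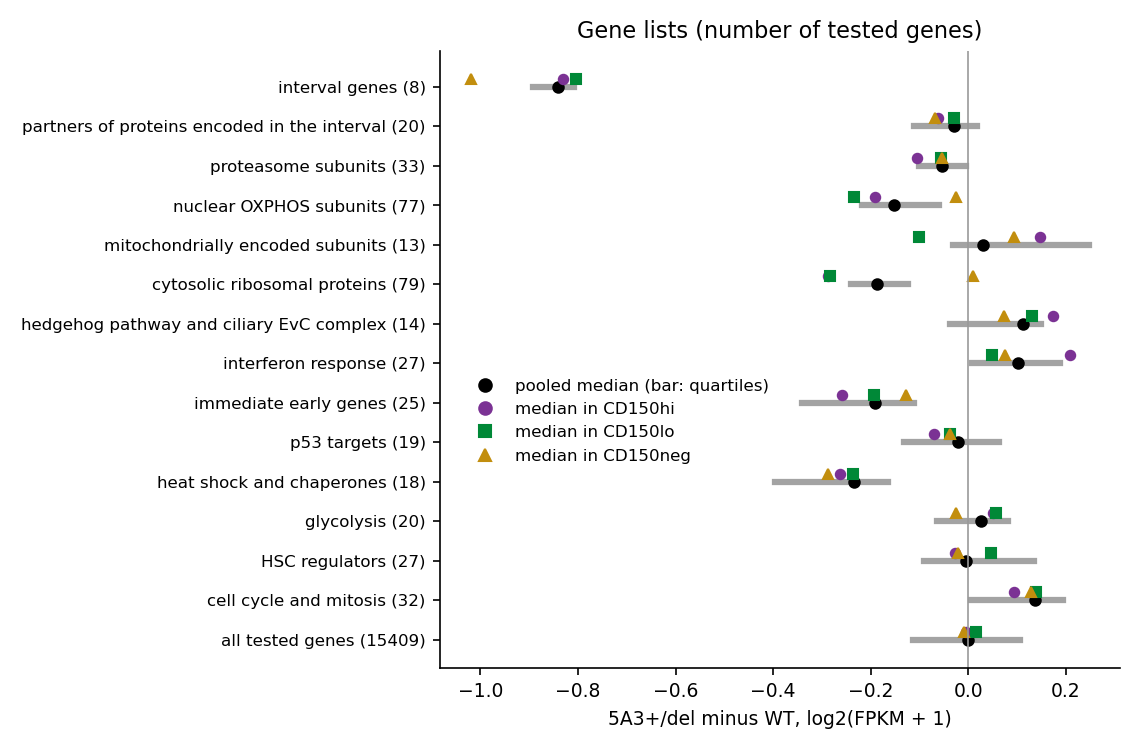
Median (black), quartiles (bar) of the pooled difference of 5A3+/del minus WT in log2(FPKM + 1), and median in each population (coloured), for the lists of genes and for all 15409 tested genes. The interval genes lie at -0.84, and the other lists plotted lie between -0.23 and 0.14.

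Hedgehog signalling was followed because of Evc and Evc2, a list drawn up with their values known. Of 24 genes 14 were tested and 0 passed. In the 3 populations 6 were higher, Evc and Evc2 among them, and 0 lower, beside 15.8% and 15.5% over all tested genes. Means over the list overlapped between genotypes, from -0.16 to 0.04 among WT mice and 0.01 to 0.22 among mutant mice. The median was 0.11. Of the response genes of the pathway, Ptch1 had -0.11 where it was tested.

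For the lists that follow, the shares over all tested genes were again 15.8% higher and 15.5% lower in the 3 populations, with a median of 0.00072. Heat shock and chaperone genes, which include Hspe1 and Dnajb1, had a median of -0.23 over 18 tested genes, with -0.26 for CD150hi, -0.24 for CD150lo and -0.29 for CD150neg cells. None passed, and 0 were higher and 14 lower in the 3 populations. Hspe1, the mitochondrial co-chaperonin, had -0.41 and Dnajb1, a J protein of the cytosol, had -0.48. Means over the list overlapped between genotypes, from -0.26 to 0.60 among WT mice and -0.27 to -0.06 among mutant mice. The 25 immediate early genes, which respond within minutes to handling and stimulation, likewise had 0 passing, 0 higher and 17 lower in the 3 populations and a median of -0.19. Their means overlapped too, from -0.50 to 0.59 among WT mice and -0.31 to -0.00257 among mutant mice. Cell cycle genes had a median of 0.14 over 32 genes, with 14 higher and 0 lower in the 3 populations and 0 passing. Means over this list overlapped between genotypes, from -0.26 to 0.14 among WT mice and -0.19 to 0.21 among mutant mice. Interferon response genes had 0.10 over 27, with 11 higher and 0 lower, and Gbp3, a guanylate-binding protein, had 0.42 ± 0.11. The interferon means overlapped as well, from -0.23 to 0.04 among WT mice and -0.28 to 0.25 among mutant mice. Glycolysis genes had 0.03 over 20, with 4 higher and 0 lower. Targets of p53 had -0.02 over 19, with 3 higher and 4 lower. Means over the glycolysis and p53 lists also overlapped between genotypes. No member of these lists passed.

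Regulators of HSC showed both signs, with a median of -0.00376 over 27 tested genes, 7 higher and 9 lower in the 3 populations and 0 passing. Hoxa9, a homeobox gene of stem and progenitor cells, had -0.33 ± 0.08 (SE, limma, adjusted p = 0.324). Gfi1b, a repressor in HSC and the erythroid and megakaryocytic lineages, had -0.62 ± 0.23 (adjusted p = 0.416). Mycn had -0.37 and Foxo3, a factor that guards HSC quiescence, had 0.20. Hoxa9, Gfi1b and Mycn were lower and Foxo3 higher in the 3 populations by sign. Among 11 genes used to check the sort 0 passed, including Cd48 and Itga2b (CD41), whose proteins the gate selects against. Ly6a, which encodes the Sca-1 antigen of the sort, had WT means of 118, 142 and 147 FPKM and mutant means of 171, 190.1 and 198 FPKM in CD150hi, CD150lo and CD150neg cells, with a pooled difference of 0.45 ± 0.13 (SE, limma, adjusted p = 0.339). Kit, the receptor used in the sort, had WT means of 159, 145 and 145 FPKM and mutant means of 166, 164 and 156 FPKM, with a pooled difference of 0.11 ± 0.12 (SE, limma, adjusted p = 0.819). Mecom and Hlf, transcription factors of HSC, had pooled differences of -0.19 ± 0.09 (adjusted p = 0.548) and -0.06 ± 0.12 (adjusted p = 0.925).

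Markers of other cell types were compared as well, and 0 of the 8 erythroid, 10 granulocyte and monocyte, 4 lymphocyte, 9 megakaryocyte and 2 mast cell markers that were tested passed. Lymphocyte markers summed to 8.12 to 44.6 FPKM. Most of this was Cd79b, a B cell receptor chain, and Dntt, the terminal transferase of lymphoid progenitors. Their group means were 9.30 to 15.0 FPKM and 0.0222 to 13.3 FPKM. The T cell gene Cd3e had group means of at most 0.211 FPKM, and its highest library had 1.06 FPKM. Among erythroid markers, the globin gene Hbb-b2 had WT means of 22.2, 45.5 and 39.4 FPKM and mutant means of 18.4, 24.8 and 26.9 FPKM in CD150hi, CD150lo and CD150neg cells. Hbb-b1 had 7.34, 14.6 and 13.0 FPKM in WT and 6.96, 9.27 and 8.95 FPKM in mutant cells. Car1, Hba-a1 and Hba-a2 went the other way, with higher mutant means in the 3 populations. Car1 had 0.791, 5.62 and 4.52 FPKM in WT and 3.66, 11.7 and 5.20 FPKM in mutant cells. Hba-a1 had 0.290, 0.556 and 0.364 FPKM in WT and 0.523, 1.51 and 0.790 FPKM in mutant cells. The other erythroid markers had no single direction in the 3 populations. Slc4a1, of the red cell membrane, had a mean of at most 0.0498 FPKM in any group. The summed erythroid markers, most of it Car2, were 363 to 602 FPKM over all libraries.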

How the data were processed

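RNA of 3 sorted populations (CD150hi and CD150lo HSC, CD150neg MPP) was amplified and sequenced in 29 libraries of 5 WT and 5 5A3+/del mice. The authors deposited FPKM per gene. The study's methods describe in-house mapping to mm9 and a coverage measure taken from 1 coding exon per gene, which is another quantity, and the submitters' processing notes name Bowtie 0.12.2 and HTSeq without a role. How the deposited FPKM were computed is not given in the sources used here. Low FPKM values were whole multiples of what 1 fragment is worth for 98.2 to 98.7% of values within 0.02 of a fragment, which gave 21229490 to 38797569 fragments per library (median 26967107), of which mitochondrial ribosomal RNA took 20.7 to 31.4%. FPKM are not counts, so no count test was run.

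Genes at 1 FPKM or above in 4 or more libraries were kept. Log2(FPKM + 1) was centred on the mean of its population and averaged per mouse, and the 10 values were compared with limma 3.58.1 in R 4.3.3 (moderated two-sided test, Benjamini-Hochberg threshold 0.05). This scale understates the change of low genes. Contrasts within populations used all 29 libraries with 6 group means, and differences between populations used limma's F test with the mouse as a random effect. Interval and edge genes under the filter were compared by an exact permutation test over mice. Fits were tested on simulated data. Tables and figures were made with Python 3.11.15, pandas 2.3.3, numpy 2.4.6 and matplotlib 3.10.9. Gene positions are those of GENCODE on mm9, matched for 29279 of 30025 genes (97.5%), and promoters came from RefSeq on GRCm38.p6.

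The libraries of a mouse were joined by the mouse code in the labels. Deviations of libraries of 1 mouse in different populations correlated at -0.05 to 0.23 (median 0.08, 28 pairs), against -0.15 to 0.13 (median -0.02, 112 pairs) for different mice. The labels do not say that the mice of a genotype came from separate litters, so p-values measure the spread between these mice. Named genes were those of the interval and its edges, every gene without overlap in the 3 populations and, since none outside passed, the 10 genes in each direction with the smallest p-values and 1 sign in the 3 populations. Among the lower genes, 1 is not reported here. Members and lists were chosen with earlier results of these data known. Alternatives covered the pseudocount, filters, normalization, the variance prior, age and Xist as covariates, the mouse as a random effect, the replicate number and leaving out mice or populations.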

Additional observations from a re-analysis of the deposited data

Results flagged for a closer look

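Among the pooled values of the 29 named tested genes, 3 of 58 groups of 5 mice held a mouse that stood apart from the other 4, and chance alone gives about 2.9 such groups. Psmc2 was 0.159 in WT mouse 3, while the other WT mice had 0.414 to 0.470. Uqcrq was -0.114 in 5A3+/del mouse 4, while the other mutant mice had -0.290 to -0.245. Gm14217 was 0.375 in WT mouse 3, while the other WT mice had 0.140 to 0.166. WT mouse 3 is the mouse with high Xist, and its part in these values was not tested. Without it the pooled difference was -0.83 for Psmc2 (limma, adjusted p = 0.0868) and -0.37 for Gm14217 (adjusted p = 0.437).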

How the results depend on the processing

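The pooled comparison called 5 genes, all of 1 sign in the 3 populations. Quantile normalization called 8 genes, adding Psmc2, Evc2 and Mir32, the last without 1 sign in the 3 populations. The mouse as a random effect called 21, and all 21 had 1 sign. Without the CD150lo libraries 3 were called, Mll5, Dnajc2 and Pmpcb, and all 3 had 1 sign. Leaving out each mouse in turn called 4 to 7 genes, of which 4 to 7 had 1 sign. Mll5, Dnajc2, Pmpcb and Armc10 were called in all 10 of these fits, and Orc5 only without 5A3+/del mouse 5. With the replicate number as a replicate block, limma called 0 genes and 0 of 1 sign, with 1381 at an unadjusted p under 0.05 against 1436 without the block. Same-numbered mice correlated at 0.02 to 0.10, 1 of 5 pairs was over 0.1 and 1 of 5 mice correlated best with its own number. Libraries of 1 mouse in different populations themselves correlated at a median of only 0.08. Mice 1, 4 and 5 had the same age in both genotypes, at 13.28, 12.42 and 12.85 weeks. These values therefore cannot tell whether the numbers pair the mice. Over the 29 named tested genes, 706 of the recomputed differences kept their direction and their side of the threshold, 25 came to pass, 19 no longer passed and 0 changed direction. For Fbxl13 the difference ran from 0.24 to 0.46, and was 1.52 with a pseudocount of 0.1. The counts within populations and between them stayed within 1.5 times with quantile normalization and without WT mouse 3, which were chosen after seeing the data, as were the Fbxl13 settings and quantile normalization without WT mouse 3, which called 5. The cause of these changes was not tested. Depth behind low genes was small, with 0 to 16 fragments of Fbxl13 per WT library and 0 to 7 of Evc2 per WT CD150neg library.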
